A study of Mus musculus with 4 samples.

Results

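The NK lineage transcription factors described here are 10 genes that set natural killer (NK) cell identity and maturation: Eomes, Tbx21, Id2, Nfil3, Tox, Gata3, Ets1, Prdm1, Zeb2 and Ikzf2. They were chosen by name from a deposited table of 37305 rows, not by a rule on their measured values, and each stood on 1 row. Earlier results of these data were known when they were chosen. The cells were primary NK cells from spleens of C57BL/6 mice at postnatal day 56, grown with the NK survival cytokine IL-15 (recombinant, murine, 50 ng/ml) over 24 hours. A control group (mock, 2 libraries) and a DKK2 group (200 ng/ml, 2 libraries) were then treated for another 24 hours, so both groups share the strain, the age and the IL-15 culture. DKK2, of the Dickkopf family, is a secreted Wnt modulator whose receptors are LRP5 and LRP6, the co-receptors of Frizzled. How the NK cells were purified, whether IL-15 stayed during treatment and whether replicates are separate animals or cultures are points not given in the sources used here. The p-values below therefore reflect the spread among 4 libraries only, and that spread may be technical.

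NK cells arise from lymphoid progenitors under a cascade of transcription factors. Nfil3, Ets1, Tox and Id2 act early, when a progenitor commits to the innate lymphoid and NK fates. The T-box factors Eomes and T-bet (encoded by Tbx21) then establish and keep the identity of conventional NK cells, and Zeb2 and Prdm1 act in terminal maturation. Gata3 and Ikzf2 (Helios) are shared with T cells and other innate lymphoid cells. The comparison asks whether transcripts of these factors differ after exposure of the cells to a Wnt antagonist.

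Levels are given in FPKM, that is fragments relative to transcript length and to sequencing depth. The libraries differed in depth: from the steps between low values, the other libraries had 0.351 to 0.401 of the depth of control replicate 1. With transcript lengths from a later annotation, the members rested on an estimated 141 to 88131 fragments per library. The lowest figure, for Tox in control replicate 2, carries a counting error of about 8.4%. The NK label was borne out by defining markers in each library, with the activating receptor gene Ncr1 at 193 to 389 FPKM and Klrb1c (NK1.1) at 272 to 523 FPKM. Markers of other cells were present at levels that differed between libraries. The summed FPKM of 12 T cell markers was 187 and 253 in the controls and 345 and 322 with DKK2. These sums include Cd247, which NK cells can also express, at 97.65 and 73.2 FPKM in the controls and 81.6 and 91.7 FPKM with DKK2. In control replicate 1 they also rest on Cd28 (37.45 FPKM), Cd3g (23.1 FPKM) and Lat (22.4 FPKM), with Cd3e at 0.601 FPKM. DKK2 replicate 1 had the highest sum. Cd4, Cd8a and Cd8b1 were lower there than in control replicate 2, and Cd3d, Cd3e and Cd3g were higher. The sums thus do not give the order of every marker. The sum of 11 monocyte and macrophage markers was 8.35 and 235 in the controls and 703 and 396 with DKK2. For 10 neutrophil and basophil markers the sums were 5.07 and 141 in the controls and 3613 and 224 with DKK2, and for 10 B cell markers 7.51 and 287 in the controls and 581 and 575 with DKK2. All markers of these 3 non-T-cell lists were lowest in control replicate 1. Cd8a and Cd8b1 were listed at 0 in control replicate 1. In bulk RNA, fewer cells of a type cannot be told apart from less RNA per cell.

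All 10 factors were detected in each of the 4 libraries, over a wide range of levels. Id2 was the most abundant, with a mean of 790 FPKM that exceeded 99.1% of the 12275 genes tested (those averaging 1 FPKM or more, a filter that all 10 members passed). Eomes followed at 182, Ets1 at 107, Nfil3 at 84.2 and Tbx21 at 39.5 FPKM. Gata3 at 13.99, Zeb2 at 10.8 and Prdm1 at 9.37 FPKM stood near the middle of the genes tested, and Tox at 3.47 and Ikzf2 at 2.92 FPKM were low. The order was the same in 4 of 4 libraries, with no overlap of ranges, between Id2 and Eomes, Eomes and Ets1, Nfil3 and Tbx21, Tbx21 and Gata3, and Prdm1 and Tox. Ets1 and Nfil3 overlapped in range, as did Gata3 with Zeb2, Zeb2 with Prdm1, and Tox with Ikzf2, so these neighbours did not differ beyond the spread of the libraries.

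**Figure D1:**
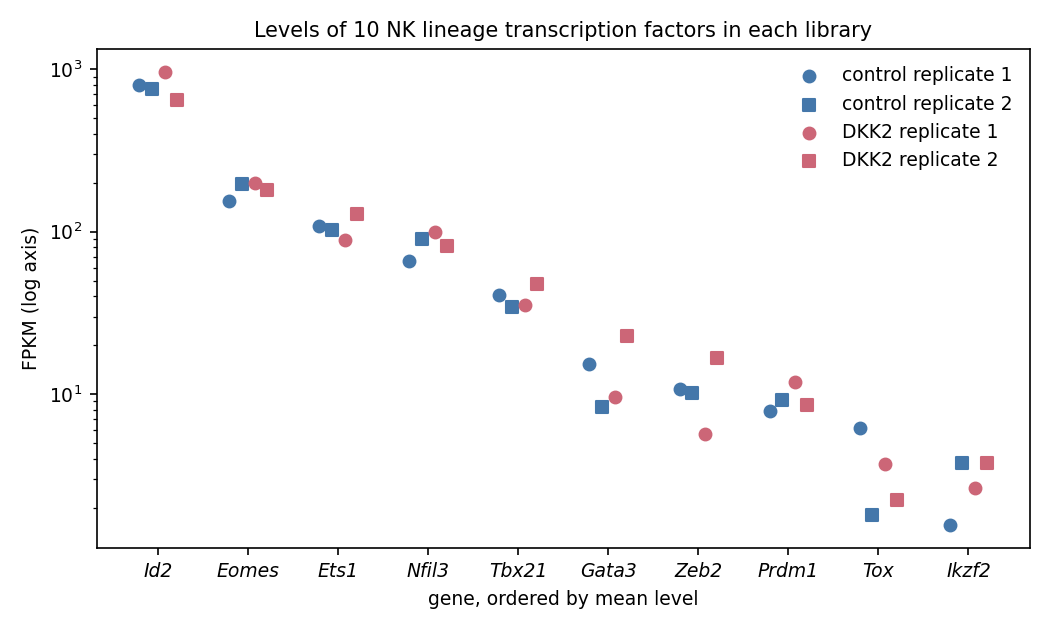
FPKM (log axis) of the 10 factors in each library, ordered by mean level; blue symbols are control libraries, red symbols DKK2 libraries, circles replicate 1 and squares replicate 2. Levels run from 1.56 FPKM for Ikzf2 to 963 FPKM for Id2, and for each gene the red and blue symbols interleave.

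For none of the 10 factors did DKK2 and control libraries differ by more than replicates did. The test was limma on log2(FPKM + 1), its p-values adjusted by Benjamini-Hochberg across all 12275 genes and called at 0.05. It called 0 of 10 members (smallest adjusted p = 1), against 0.0326% of all genes tested, and 0 of 10 had an unadjusted p under 0.05, against 1.84% of all genes. In 0 of 10 members did both DKK2 libraries lie on the same side of both controls, where 26.5% of the genes tested did. Differences (DKK2 minus control) ran from -0.20 to 0.36 on the log2(FPKM + 1) scale, a scale that understates the change of low genes, with 8 members higher and 2 lower in the mean. Their median was 0.12, beside -0.05 over all genes tested. Each difference was smaller than the larger of the gene's 2 replicate differences, which follows from the overlap of the groups and is not a separate result. An exact permutation test of 1 gene could reach no p below 0.333 in a design of 2 against 2, so limma, which pools the spread over genes, was the only test of single genes.

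**Figure D2:**
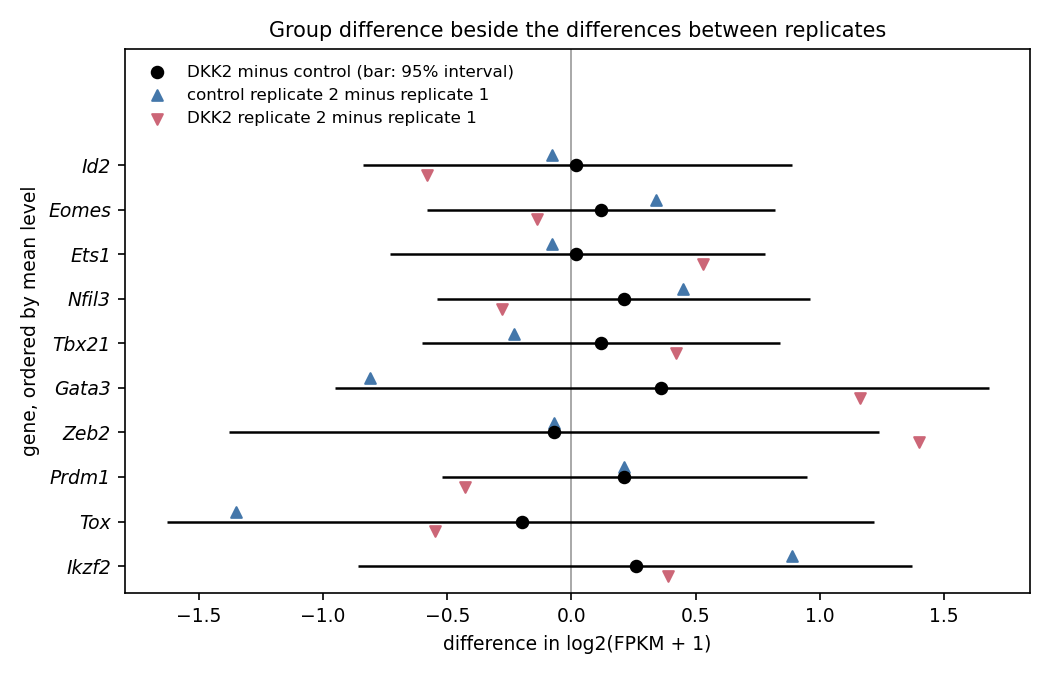
Difference in log2(FPKM + 1) between DKK2 and control (black points, bars the 95% intervals of limma) beside the difference between the 2 controls (blue triangles) and between the 2 DKK2 libraries (red triangles), for each factor. All 10 intervals include 0, and the replicate differences reach -1.35 (Tox, controls) and 1.40 (Zeb2, DKK2 libraries).

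Eomes and T-bet are related T-box proteins that bind the same DNA element and share many target genes in NK cells. Eomes was at 155 and 196 FPKM in the controls against 198 and 180 FPKM after DKK2. Control replicate 1 was the low library, and the other libraries lay close together. The difference was 0.12 ± 0.27 (SE), with a 95% interval of -0.58 to 0.82, that is from 0.67-fold to 1.76-fold, and limma gave an adjusted p of 1. Tbx21 was at 40.7 and 34.5 FPKM in the controls against 35.2 and 47.5 FPKM with DKK2. Here DKK2 replicate 2 was the high library, and DKK2 replicate 1 was nearly level with control replicate 2. The difference was again 0.12 ± 0.28 (95% interval -0.60 to 0.84). The ratio of Eomes to Tbx21 transcripts, both per length, was 3.80 in control replicate 1 and 3.79 in DKK2 replicate 2, and 5.67 in control replicate 2 and 5.63 in DKK2 replicate 1. By this ratio the libraries fell into pairs of 1 control and 1 DKK2 library each, not by treatment.

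The upstream sequences of these T-box genes are shown as a description, and no link to their levels was tested. RefSeq start sites were matched by symbol for 7 of the 10 members, not for Tox, Ets1 and Ikzf2. Each line below holds the 250 bases before the start, 5′ to 3′ on the strand of the gene, from RefSeq on GRCm38.p6 (Eomes chr9:118477939-118478188, plus strand; Tbx21 chr11:97115332-97115581, minus strand). The deposited values were made on mm9, per the submitters' processing notes, and carry no coordinates. Capitals mark matches, on either strand, to 9 short motifs.
Eomes: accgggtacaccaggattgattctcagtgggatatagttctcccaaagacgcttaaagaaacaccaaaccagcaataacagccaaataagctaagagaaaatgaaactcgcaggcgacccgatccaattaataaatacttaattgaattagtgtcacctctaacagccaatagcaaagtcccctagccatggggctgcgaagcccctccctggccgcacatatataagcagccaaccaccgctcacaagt
Tbx21: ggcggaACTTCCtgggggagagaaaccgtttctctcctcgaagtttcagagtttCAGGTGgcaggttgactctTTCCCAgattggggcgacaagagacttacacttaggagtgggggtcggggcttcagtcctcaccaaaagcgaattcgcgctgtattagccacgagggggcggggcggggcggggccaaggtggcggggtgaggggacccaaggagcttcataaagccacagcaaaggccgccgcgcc
The Tbx21 window held 1 match each to the ETS core GGAAGT (present in 19.7% of 32851 RefSeq windows of the same length), the ZEB and E protein E-box CACCTG (17.2%) and the IKAROS core TGGGAA (21.6%). The Eomes window held none of the 9. The other motifs searched were the T-box core AGGTGT (11.8%), the E-box CAGCTG (13.0%), AGATAA for GATA (in 3281 windows), TTANGTAA for NFIL3 (2.1%), CTTTGA for TCF/LEF (13.8%) and TTCNNNGAA for STAT5 (7.0%). The T-box core can overlap the reverse complement of the ZEB E-box. The TCF/LEF letters, the end point of canonical Wnt signalling, were in 0 of the 10 windows of the 7 matched members, as were those of T-box, GATA and NFIL3. The E-box CAGCTG was found for Id2 and Nfil3, and the STAT5 letters for Zeb2. Prdm1 shared with Tbx21 the ETS, ZEB E-box and IKAROS letters. A match is a description of letters, and its absence says only that these letters are not in this window.

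Among the early-acting factors, Nfil3 encodes a basic leucine zipper repressor that NK development in bone marrow depends on. Its transcript was at 66.0 and 90.6 FPKM in the controls against 99.0 and 81.3 FPKM with DKK2. As with Eomes, control replicate 1 was lowest and DKK2 replicate 1 highest, and the groups overlapped (0.21 ± 0.29, 95% interval -0.54 to 0.96). Id2 encodes a helix-loop-helix protein without a DNA-binding region, which sequesters E proteins and so represses alternative lymphoid fates. It was at 796 and 754 FPKM in the controls against 963 and 645 FPKM with DKK2. The DKK2 libraries bracketed the controls, 1.49-fold apart, whereas the controls were 1.06-fold apart (0.02 ± 0.33, 95% interval -0.84 to 0.89).

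Ets1, founder of the ETS family and needed for NK development, was at 108 and 103 FPKM in the controls against 88.9 and 129 FPKM with DKK2. The DKK2 libraries again lay on either side of the controls, here with replicate 2 the higher (0.02 ± 0.29, 95% interval -0.73 to 0.78). Tox, an HMG-box protein, was at 6.16 and 1.80 FPKM in the controls against 3.71 and 2.22 FPKM with DKK2. The controls alone were 3.42-fold apart, the widest control gap of the 10 members, and both DKK2 libraries fell between them (-0.20 ± 0.55, 95% interval -1.63 to 1.22). Gata3, a zinc finger factor of T cells and innate lymphoid cells, was at 15.3 and 8.31 FPKM in the controls against 9.61 and 22.7 FPKM with DKK2. DKK2 replicate 2 was the high library, 2.36-fold above DKK2 replicate 1, and the group difference of 0.36 ± 0.51, the largest of the 10, had a 95% interval of -0.95 to 1.68.

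Of the factors of terminal maturation, Zeb2 is a zinc finger repressor that acts downstream of T-bet. It was at 10.7 and 10.1 FPKM in the controls against 5.68 and 16.6 FPKM in DKK2 replicates 1 and 2. The controls were close to each other, and the DKK2 libraries, 2.92-fold apart, lay on opposite sides of them (-0.07 ± 0.51, 95% interval -1.38 to 1.24). Without DKK2 replicate 1 the difference was 0.62, and without DKK2 replicate 2 it was -0.77, so the sign of the Zeb2 value was set by which DKK2 library was counted. Prdm1 encodes Blimp-1, a transcriptional repressor that promotes terminal lymphocyte differentiation, and was at 7.88 and 9.24 FPKM in the controls against 11.8 and 8.54 FPKM with DKK2 (0.21 ± 0.29, 95% interval -0.52 to 0.95). DKK2 replicate 1 was the high library, and DKK2 replicate 2 fell between the controls. Ikzf2, an IKAROS family factor, was at 1.56 and 3.74 FPKM in the controls against 2.63 and 3.76 FPKM with DKK2 (0.26 ± 0.43, 95% interval -0.86 to 1.37). Control replicate 1 was the low library, and control replicate 2 and DKK2 replicate 2 were at nearly the same level.

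The members fell into patterns that cut across treatment. Id2, Eomes, Nfil3 and Prdm1 were highest in DKK2 replicate 1. Tbx21, Gata3, Ets1, Zeb2 and Ikzf2 were highest in DKK2 replicate 2, and Tox was highest in control replicate 1. Thus 9 of 10 members peaked in a DKK2 library, as did 53.5% of all genes tested, but not in the same one, and 3 of 10 also had their lowest value in a DKK2 library (61.2% of all genes). The lowest of these was in DKK2 replicate 1 for Ets1 and Zeb2 and in DKK2 replicate 2 for Id2. Over the 10 members the median absolute difference between the DKK2 libraries was 0.48, and between the controls 0.29. Between a control and a DKK2 library it was 0.21 to 0.52, a range that holds both within-group values. The same values over all genes tested were 0.44, 0.28 and 0.28 to 0.42.

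**Figure D3:**
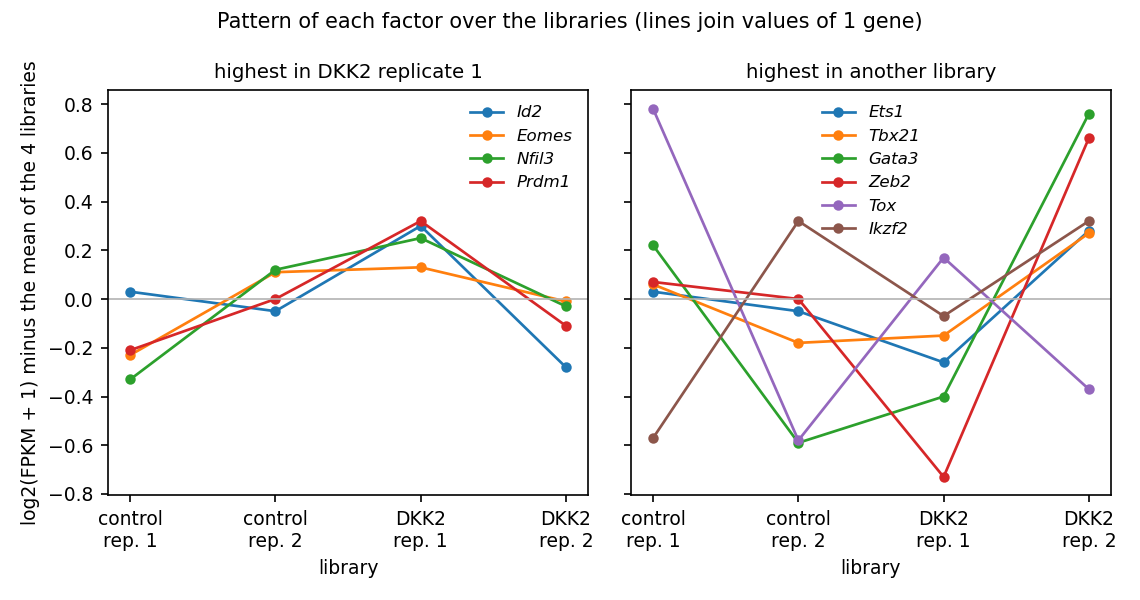
Value of each factor in each library as log2(FPKM + 1) minus its mean over the 4 libraries; the left panel holds the 4 factors highest in DKK2 replicate 1, the right panel the other factors, and lines join the values of 1 gene. On the right, Zeb2 runs from -0.73 in DKK2 replicate 1 to 0.66 in DKK2 replicate 2, and Gata3 from -0.40 to 0.76.

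Transcript length moved with the gap between the DKK2 libraries. Genes tested were divided into 5 bins of equal size by their longest annotated transcript (known for 96.1% of them and for all 10 members). The median difference, DKK2 replicate 2 minus replicate 1, was -0.03 in the shortest bin and 0.26 in the longest (transcripts of 4871 bases or more), in log2(FPKM + 1). Zeb2, Ets1, Ikzf2 and Prdm1 belong to the longest bin, and Id2 and Nfil3 to the second shortest. Zeb2, with a transcript of 9124 bases, was higher in DKK2 replicate 2 by 1.40, and by 1.08 after a curve for length had been subtracted from each library. For Ikzf2 (9278 bases) the same gap was 0.39 before and 0.08 after, and for Ets1 (5080 bases) 0.53 and 0.35. Prdm1 (5281 bases) went the other way, with -0.43 before and -0.63 after. Gata3, of moderate length at 3215 bases, had gaps of 1.16 and 1.11. After this correction, chosen after the data were seen, limma again called 0 of 10 members, the groups again overlapped in each, and the sign changed only for Zeb2, to 0.08 ± 0.42.

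**Figure D4:**
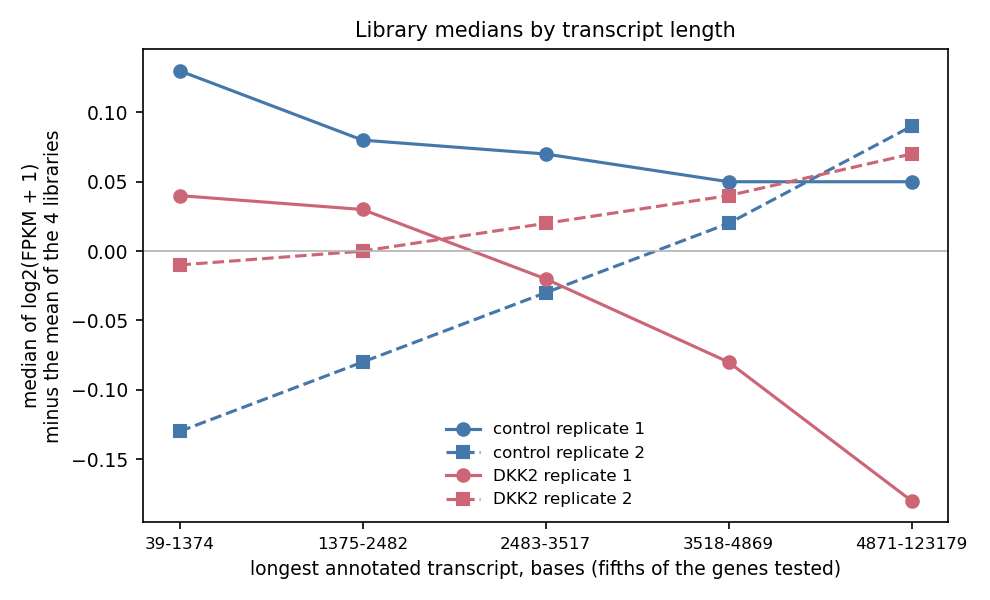
Median over genes of log2(FPKM + 1) minus the mean of the 4 libraries (y axis), in 5 bins of the genes tested by longest annotated transcript in bases (x axis); each line is a library. DKK2 replicate 1 goes from 0.04 in the shortest bin to -0.18 in the longest, and control replicate 2 from -0.13 to 0.09.

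Several members are also expressed by other cells whose markers differed between libraries: Gata3, Ets1, Ikzf2, Tox, Id2 and Prdm1 by T cells, and Zeb2 by myeloid cells. Of the 12 T cell markers 9 were lowest in control replicate 1, and of the 9 tested 8 were higher with DKK2 and 1 lower. The CD3 genes Cd3e (0.601 and 13.99 FPKM in the controls against 17.4 and 20.4 FPKM with DKK2) and Cd3g (23.1 and 87.3 FPKM against 169 and 117 FPKM) were above both controls, as was Cd3d. Other T cell markers took other orders: Cd28 was below both controls with DKK2 (-0.49 ± 0.27), Cd247 and Lat had differences of 0.03 and 0.01 and were highest in control replicate 1, and Cd4, Cd8a and Cd8b1 were lower in DKK2 replicate 1 than in control replicate 2. The median of this list was 0.38, but 1.23 without control replicate 2, 1.29 without DKK2 replicate 1, -0.17 without DKK2 replicate 2 and 1.25 with a pseudocount of 0.1. Among the members, Ikzf2 and Prdm1 were lowest in control replicate 1, Tox had its highest value there, and Ets1, Gata3 and Id2 had their second highest.

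Markers of myeloid and B cells were higher with DKK2 in all genes tested of those lists, and limma called 0 of them. Both DKK2 libraries were above both controls in 8 of 10 monocyte and macrophage markers tested (median 2.23), in 8 of 8 neutrophil and basophil markers (median 2.57) and in 3 of 8 B cell markers (median 1.06). Over all genes tested this share was 11.8%. Without control replicate 1 the medians of these lists were 0.88, 1.82 and, for B cell markers, -0.11. Lysozyme 2 (Lyz2) was at 0.889 and 142 FPKM in the controls against 552 and 209 FPKM with DKK2, and the complement gene C1qb at 0.0186 and 2.01 FPKM against 27.8 and 5.93 FPKM. Csf1r, Cd68, Adgre1, Cd14 and Fcgr1 of the same list had their highest value in DKK2 replicate 2. Zeb2, which myeloid cells also express, was lowest in DKK2 replicate 1 and highest in DKK2 replicate 2, and the centred median of the monocyte and macrophage list was 1.25 and 1.39 in these libraries. The calprotectin genes S100a8 (0.341 and 31.6 FPKM in the controls, 1738 and 56.4 FPKM with DKK2) and S100a9 (0.686 and 21.6 FPKM, 1582 and 46.0 FPKM) were by far highest in DKK2 replicate 1. The MHC class II genes H2-Aa (1.25 and 87.95 FPKM, 199 and 153 FPKM) and H2-Ab1 (1.73 and 48.2 FPKM, 184 and 108 FPKM) were lowest by far in control replicate 1. Of 3 dendritic cell markers tested, only Bst2 had both DKK2 libraries above the controls (90.1 and 89.6 FPKM, 91.6 and 111 FPKM). Without control replicate 1, the library with the lowest myeloid and B cell markers, the median difference of the members was 0.06, beside 0.00 over all genes tested. That fit holds only 1 control library and cannot show what other cells contributed. How much of each member's transcript came from other cells was not tested.

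Relatives of the members, too, gave no call. The list of their families held 40 matched genes, of which 31 could be tested and 10 are the members themselves, and limma called 0 of 31 (median -0.03, 14 higher and 17 lower). Both DKK2 libraries were on the same side of both controls in 5 of the 31, or 16.1%, against 26.5% of all genes tested. The 31 include the members, for which this held in 0 of 10. All 5 were thus among the 21 tested genes of the list that are not members. No other T-box gene of the list reached the filter: Tbx6 was at 0.0339 to 0.190 FPKM and Tbx19 at 0.00420 to 0.0214 FPKM. In the ID family Id2 stood alone at high level, and Id1 (0.0901 and 0.128 FPKM in the controls, 1.47 and 0.673 FPKM with DKK2) and Id3 (0.460 and 0.562 FPKM, 0.883 and 0.763 FPKM) were too low to test, though higher in both DKK2 libraries. They are singled out after their values were seen. The E proteins that ID proteins bind were present, with Tcf12 at 38.7 and 35.4 FPKM in the controls against 23.9 and 38.2 FPKM with DKK2 (-0.28 ± 0.31), Tcf4 at 6.81 to 17.1 FPKM and Tcf3 at 8.95 to 18.2 FPKM. Each of these E proteins was lowest in DKK2 replicate 1, as Zeb2 and Ets1 were.

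Zeb1, the relative of Zeb2, was at 9.87 and 13.1 FPKM in the controls against 6.84 and 11.2 FPKM with DKK2 (-0.34 ± 0.34). The ratio of Zeb2 to Zeb1 was 1.08 and 0.772 in the controls and 0.830 and 1.48 with DKK2, so either gene could be the more abundant. Among IKAROS factors Ikzf1 (105 to 130 FPKM) and Ikzf3, Aiolos (53.6 to 93.1 FPKM), far exceeded Ikzf2, and Ikzf3 was 15.6 to 47.2 times as abundant as Ikzf2. Ikzf5 was at 5.50 to 10.7 FPKM and Ikzf4 below the filter at 0.416 to 0.792 FPKM. Of the other TOX genes only Tox4 was tested, at 22.4 to 25.5 FPKM, while Tox2 was listed at 0 in control replicate 2 and Tox3 did not exceed 0.0960 FPKM. Gata2 was at 0.00561 and 2.94 FPKM in the controls against 1.27 and 4.07 FPKM with DKK2, and Gata1 at most at 2.09 FPKM with a mean below the filter. Both were nearly at 0 in control replicate 1, unlike Gata3.

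In the ETS family Gabpa was at 81.5 and 85.4 FPKM in the controls against 65.1 and 58.5 FPKM with DKK2 (-0.43 ± 0.24), and Fli1 at 52.1 and 58.8 FPKM against 49.6 and 48.5 FPKM (-0.17 ± 0.24). In both, the DKK2 libraries lay below both controls, and limma gave an adjusted p of 1 for each. Elf1 (67.4 to 76.2 FPKM) and Elf4 (39.2 to 56.4 FPKM) overlapped between groups, as did Etv6 (7.23 to 13.7 FPKM) and Ets2 (2.94 to 7.48 FPKM). Spi1 (PU.1, listed under its older symbol Sfpi1), a factor of myeloid and B cells, was at 0.131 and 9.02 FPKM in the controls against 13.6 and 20.6 FPKM with DKK2 (2.40 ± 1.05, limma adjusted p = 1), nearly absent in the library that also had the least Lyz2. In the families of Nfil3 and Prdm1, Dbp was at 3.48 and 2.68 FPKM against 3.51 and 3.88 FPKM with DKK2, Hlf at 0.130 and 1.01 FPKM against 1.17 and 2.12 FPKM, and Tef at 3.02 to 10.5 FPKM. Prdm2 was at 8.93 to 14.5 FPKM and Prdm10 at 1.51 to 3.04 FPKM, both lowest in DKK2 replicate 1.

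The wider set of NK and lymphoid transcription factors gave a like result. Of 34 genes, 29 could be tested and limma called 0, with 13 higher and 16 lower (median -0.05, the same as over all genes tested). In 3 genes both DKK2 libraries exceeded both controls and in 3 they were below them, together 20.7% against 26.5% of all genes. By size, the leading genes among these 6 were Spi1, given above, and Klf2, a factor of lymphocyte quiescence and recirculation, at 1.45 and 2.82 FPKM in the controls against 4.60 and 4.06 FPKM with DKK2 (0.80 ± 0.36, 95% interval -0.14 to 1.74). After centring each gene, the median of the list was -0.25 in the first DKK2 library and 0.22 in the second, beside -0.05 and 0.02 over all genes tested. As a list these factors were thus low in 1 DKK2 library and high in the other. In the bin of longest transcripts the same medians were -0.18 and 0.07, and the part of transcript length in the list was not tested. The members had centred medians of 0.03 and 0.13, with 5 of 10 higher in the second DKK2 library and the others lower.

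Genes that T-bet and Eomes are known to control were spread in both directions. Of 16 tested (Zeb2 and Prdm1 among them), 10 were higher and 6 lower with DKK2, limma called 0, and the median was 0.11. Both DKK2 libraries lay on the same side of both controls in 6 of them, or 37.5%, against 26.5% of all genes. Klrg1, an inhibitory receptor of mature NK cells, was at 47.1 and 117 FPKM in the controls against 176 and 133 FPKM with DKK2 (1.03 ± 0.49, limma adjusted p = 1). Ifng, the signature NK cytokine, was at 255 and 93.3 FPKM in the controls against 64.8 and 87.8 FPKM with DKK2 (-1.02 ± 0.54), with control replicate 1 far above the other libraries. Itgam (CD11b), which marks mature NK cells and is also a myeloid integrin, was at 19.4 and 19.2 FPKM in the controls against 40.1 and 37.2 FPKM with DKK2 (0.96 ± 0.23, 95% interval 0.36 to 1.57, limma adjusted p = 1). Itgam is outside the rule for named genes and was chosen after its values were seen; monocyte, macrophage and neutrophil markers differed in the same direction, and their part in it was not tested.

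Maturation markers went both ways. Of 11 mature NK markers tested 7 were higher and 4 lower (median 0.16, 0 called by limma), and in 7 of 11, or 63.6%, the groups did not overlap, against 26.5% of all genes tested. Both DKK2 libraries were above the controls for Itgam, Klrg1, Ly6c2 and S1pr1, and below them for genes that include the cytotoxic granule genes Gzmb and Prf1 (perforin, 1207 and 955 FPKM against 649 and 851 FPKM). S1pr1, the sphingosine-phosphate receptor of lymphocyte egress, was at 0.554 and 7.65 FPKM in the controls against 9.85 and 11.6 FPKM with DKK2 (1.67 ± 0.84), lowest by far in control replicate 1 as Cd3e and Cd74 were. Itgam and Ly6c2 are also genes of monocytes or neutrophils, whose markers were higher with DKK2, and the part of other cells in these differences was not tested. Without control replicate 2 the median of this list was -0.10, and it was 0.36 without control replicate 1 and 0.38 without DKK2 replicate 2. Of 12 immature NK markers 8 were higher and 4 lower (median 0.24, 0 called). The groups did not overlap in 2 of 12, or 16.7%, against 26.5% of all genes tested, and these were Cd7 and Ctla2a. Among the 4 lower were Kit (-0.81 ± 0.98) and Xcl1 (-0.81 ± 0.96), whose groups overlapped. Cd7, a surface glycoprotein of NK and T cells, was at 44.5 and 12.0 FPKM in the controls against 86.9 and 62.9 FPKM with DKK2 (1.62 ± 0.64), and the protease inhibitor gene Ctla2a at 315 and 548 FPKM and 743 and 555 FPKM. Without DKK2 replicate 2 the median of the immature list was -0.13.

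Markers of type 1 innate lymphoid cells (ILC1), the relatives of NK cells that depend on T-bet but not Eomes, were higher in 9 of 10 cases in the mean (median 0.61), and limma called 0. Of 11 such genes 8 were lowest in control replicate 1, and without that library the median was 0.15. The integrin gene Itga1 (CD49a) was at 1.89 and 3.06 FPKM in the controls against 4.75 and 5.41 FPKM with DKK2 (0.83 ± 0.33), and Tmem176b, also of myeloid cells, at 5.27 and 26.6 FPKM and 27.8 and 37.5 FPKM (1.34 ± 0.73). The ILC1 factor Zfp683 (Hobit, listed as Gm13060) was at 0.233 to 0.711 FPKM, below the filter. Eomes, at 155 FPKM or more in every library, was also lowest in control replicate 1. The share of ILC1 among the cells was not tested.

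Receptors, kinases and the transcription factors Smad4 and Foxo1, listed as inputs of the members, gave 0 calls of 15 by limma. Of these genes 4 were higher and 11 lower (median -0.11), and without DKK2 replicate 1 the median was 0.24. The groups did not overlap in 5, or 33.3%, against 26.5% of all genes tested. Il12rb2, the inducible chain of the IL-12 receptor, which acts through STAT4 on T-bet, was at 150 and 142 FPKM in the controls against 57.9 and 131 FPKM with DKK2 (-0.74 ± 0.44). Il15ra was at 8.03 and 8.86 FPKM against 14.5 and 10.6 FPKM with DKK2 (0.51 ± 0.28). The centred median of the list was -0.38 in the first DKK2 library and 0.26 in the second, beside -0.05 and 0.02 over all genes tested. The members were split between these libraries. Zeb2, Gata3, Ets1, Tbx21 and Ikzf2 (5 of 10) were higher in the second, and Id2, Eomes, Nfil3, Prdm1 and Tox were lower.

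**Figure D5:**
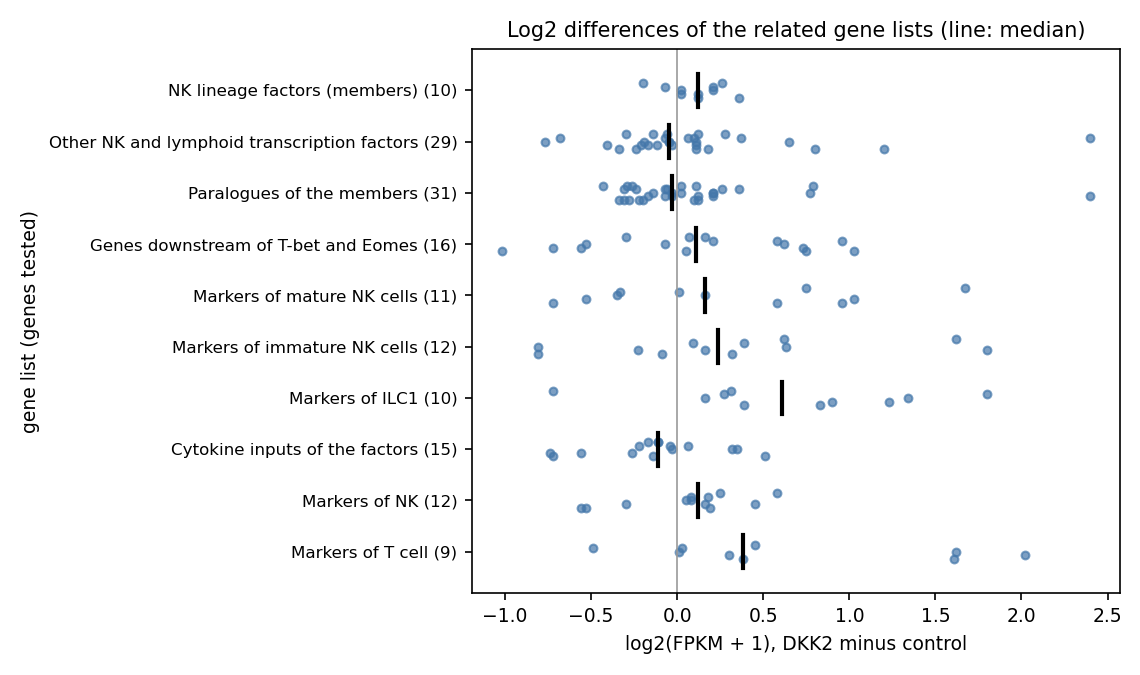
Log2(FPKM + 1) difference, DKK2 minus control, of each gene tested (points) in the members and in related lists, with the number tested in parentheses and the median as a black line. The members span -0.20 to 0.36 around a median of 0.12, and the ILC1 and T cell lists have medians of 0.61 and 0.38, which are 0.15 for ILC1 without control replicate 1 and -0.17 for T cells without DKK2 replicate 2.

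Genes with the pattern most like that of each T-box factor were sought over the 4 libraries, by the root mean square difference of log2(FPKM + 1) values centred on each gene's mean. For Eomes these were Mir546 (0.012) and Ccdc117 (0.014), and for Tbx21 Gch1 (0.011) and Rnf215 (0.013). With 4 libraries such likeness is common: 328 of the other 12274 genes tested (2.7%) lay within 0.1 of Eomes, and 413 (3.4%) within 0.1 of Tbx21. Ccdc117 was at 14.1 and 17.9 FPKM in the controls against 17.9 and 16.6 FPKM with DKK2, the same order of high and low libraries as for Eomes except for its 2 highest, which were level. Gch1 was at 2.24 and 1.72 FPKM against 1.82 and 2.72 FPKM, highest in DKK2 replicate 2 as Tbx21 was.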

How the data were processed

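RNA was sequenced in 4 libraries made with a stranded total RNA kit, per the labels' protocols. The authors deposited 1 table of FPKM values, per the file headers (its name says RPKM). Tools listed, without roles, in the submitters' processing notes are TopHat2 2.1.0, CASAVA, edgeR and Cuffdiff 2.1.0, with the build mm9. The annotation, the strand setting and the handling of multiply mapped fragments are not given in the sources used here. Each of the 4 columns of values carries a sample name. FPKM carries no counts, so no count model was used.

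From these values log2(FPKM + 1) was computed, genes averaging 1 FPKM or more were kept, and limma 3.58.1 (R 4.3.3) compared the groups (eBayes with a trend, two-sided, Benjamini-Hochberg over 12275 genes, threshold 0.05). Procedures were tested on simulated data. The alternatives were other pseudocounts, filters and scalings, protein-coding genes only, no trend, a replicate block, leaving out each library and, added after the data were seen, a length correction. Transcript lengths come from GENCODE M21 by symbol. The members and lists were chosen with earlier results of these data known. Named are all members, the family members, any called gene of a list (cell markers included) or otherwise its 2 largest differences among genes whose groups do not overlap, and the 2 genes most like each T-box factor. The values of 1 marker gene are not reported here.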

Additional observations from a re-analysis of the deposited data

How the results depend on the processing

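Limma called 0 members past the threshold under every alternative run: pseudocounts of 0.1 and 0.5, no filter, a filter at 5 FPKM (which kept 8 members), quantile and upper quartile scaling, protein-coding genes only, no trend, a replicate block, leaving out each library, and the length correction. In each, 0 members had an unadjusted p under 0.05, and the smallest adjusted p was 0.60, without DKK2 replicate 2. The median over the members was 0.12 to 0.17 in the fits with all 4 libraries and -0.01 to 0.18 when a library was left out (-0.01 without control replicate 2, 0.18 without DKK2 replicate 1). Leaving out a library turned the sign of 2 to 4 members at a time and of 9 of 10 in at least 1 fit, with Prdm1 the exception; the lone library of such a fit is assumed to vary like the other group. Quantile normalization turned the sign of Id2, and the length correction that of Zeb2.

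With the replicate number as a replicate block, the members' median was 0.12 and 0 of 10 were called. Deviations of same-numbered libraries had a correlation of 0.012 across genes, so the numbers are not shown to pair the samples. Over all genes tested, limma called 4, and 8 with the replicate block, 2 with the length correction, and 0 with no filter, with protein-coding genes only and in each fit without a library (949, 197 and 150 to 855 at an unadjusted p under 0.05). The median SE of the members was 0.31 on the log2(FPKM + 1) scale, and the counting error at the fewest estimated fragments, those of Tox in control replicate 2, was 8.4%.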
